A study of Mus musculus with 12 samples.

Results

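Cells labelled EV-deficient were compared with cells labelled EV-proficient after paclitaxel, in 6 of the study's 12 RNA-seq libraries, chosen by their labels. The cells are MOC2, a mouse oral squamous cell carcinoma line. EVs, or extracellular vesicles, are small membrane-bound particles shed by cells, and the study asked what the vesicles of senescent tumour cells add to the signals those cells send out. Libraries 1 to 3 of the derivative MOC2-25 carry the label EV-proficient, and libraries 1 to 3 of MOC2-27 the label EV-deficient, a line in which vesicle release was blocked genetically and whose blocked gene the labels do not name. Both received 600 nM paclitaxel for 48 h in EMedia, a rich epithelial medium with serum, EGF, insulin, hydrocortisone and cholera toxin. The other 6 libraries are the DMSO controls of the same derivatives and enter here through the filter, the shared estimate of spread and a comparison of the same contrast under DMSO. Of the 55421 Ensembl genes in the deposited count table, 18108 passed the filter on low counts and were tested. Because only MOC2-27 carries the EV-deficient label and only MOC2-25 the EV-proficient one, an effect of the block cannot be told apart from other differences between these derivatives. The labels do not say whether the libraries of a group came from separate cultures, so the p-values measure the spread between these libraries, which may be technical.

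Paclitaxel binds the beta-tubulin of microtubules and stops their shortening, and cells that leave the resulting mitotic arrest without dividing are often polyploid and can enter senescence, a lasting exit from the cell cycle. Senescent cells secrete chemokines, growth factors and proteases, and DNA in the cytosol or in micronuclei can be detected by sensors such as cGAS, which signal through STING and IRF3 to type I interferon. Interferon acts through JAK kinases and STAT transcription factors on genes that carry an interferon-stimulated response element (ISRE), and vesicles can carry nucleic acids and chemokines out of the cell.

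Library totals under paclitaxel ran from 23263472 counts (EV-proficient 3) to 54274224 (EV-proficient 2). EV-proficient 3 stood apart from its group on the first principal component of the 6 libraries. No replicate pair agreed within sampling noise. The share of counts on mitochondrially encoded genes was 0.878% ± 0.031 in the EV-proficient and 1.27% ± 0.19 in the EV-deficient libraries, and that on ribosomal protein genes 7.24% ± 0.40 and 5.95% ± 0.28 (SD, n = 3 each). Of 10 epithelial markers, 8 were tested, among them Krt8, Krt18 and Cdh1, with 1 called higher and 5 lower, whereas the squamous basal markers Krt5 (at most 1 count in a library) and Trp63 (at most 11 counts) did not pass the filter. Of the markers of other cell types, 1 of 6 for T and NK cells (Trac, at 6.14 and 7.04 CPM in the EV-proficient and EV-deficient libraries), 1 of 4 for B cells (Cd79a, at 0.826 and 0.776 CPM) and 3 of 8 for myeloid cells passed the filter, as did 5 of 5 for endothelium, 2 of 4 for muscle and 1 of 3 for erythroid cells. The myeloid ones were Cd68 (30.05 and 29.96 CPM), Ptprc (1.02 and 0.765 CPM) and Csf1r, which was called lower (11.6 and 5.34 CPM), while Cd3d, Cd8a, Nkg7, Ms4a1 and Adgre1 had 0 counts in all 6 libraries. Of 4 neural markers Stmn2 and Syt1 were called higher, and of 6 fibroblast markers Dcn and Col1a1, both below 2 CPM. With 1 library left out, 0 to 1 fibroblast markers were called higher, and Dcn was not called in 8 of 14 alternatives. The part of such cells or programmes in the results was not tested. A row that the authors added for a dngfr sequence, a truncated receptor used as a surface tag, stood at 3.24 ± 0.68 CPM (counts per 1000000) in the EV-proficient and 10.9 ± 1.4 CPM in the EV-deficient libraries under paclitaxel, but at 8.99 ± 3.23 and 2.15 ± 0.35 CPM under DMSO (SD, n = 3 each). It therefore changed sides between the treatments, as many genes did, and whether the EV labels of 1 treatment were exchanged cannot be told from these files. All directions hold for the libraries as labelled.

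Cells labelled EV-deficient differed from cells labelled EV-proficient in 6853 genes under paclitaxel (37.8% of those tested; edgeR quasi-likelihood test, adjusted p under 0.05). Of these, 2903 (16.0%) were higher and 3950 (21.8%) lower in the EV-deficient libraries, so that 42.4% of the calls were higher. With upper-quartile scaling, which moved the median log2 fold change of all genes from -0.0047 to 0.091, 58.2% were higher. A difference of at least 2-fold was called in 1572 genes (8.68%), 1112 higher (6.14%) and 460 lower (2.54%), and here the higher genes were the majority with both scalings. In 3604 genes (19.9%) every EV-deficient library lay above every EV-proficient one, and in 4373 (24.1%) below it; groups that do not overlap are read against these shares. Interferon-induced genes, chemokines, Hox genes and Cdh2 led the higher side, and Qrfp, Plac8, Bmp7, Tnc and Krt6a were among the genes furthest on the lower side.

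The balance of directions changed with expression level. Among the 5087 genes below 1 CPM, 525 were at least 2-fold higher and 117 at least 2-fold lower, whereas among the 2178 genes at 100 CPM or more these counts were 15 and 13. In 90 of the 1572 genes all libraries of one group had at most 3 counts (76 with the EV-proficient and 14 with the EV-deficient group at this floor), so their fitted folds are not measured sizes. Genes with a mean of at least 5 CPM were put into 4 equal classes by the GC content of their longest annotated transcript (2613 genes in the richest and in the poorest class). The class richest in GC had a median log2 fold change of -0.26, with 214 higher and 1417 lower, against 0.036 in the poorest class, with 626 higher and 396 lower. The part of GC content in the gene lists described below was not tested.

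**Figure D1:**
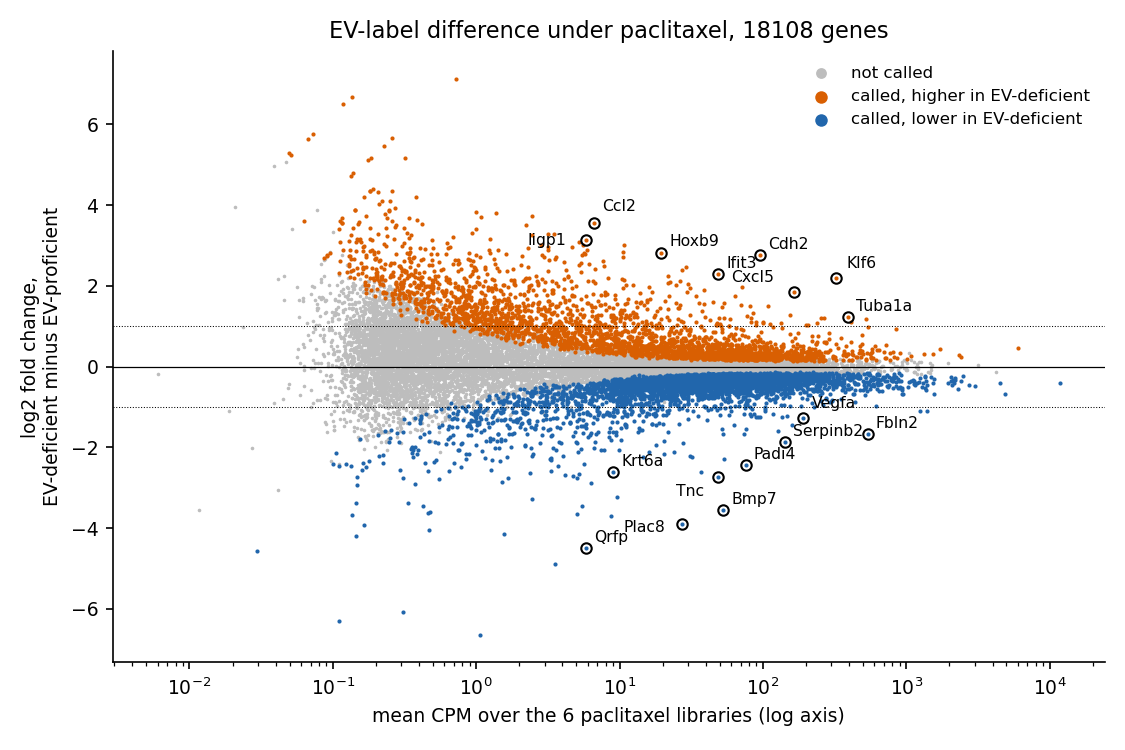
Mean CPM over the 6 paclitaxel libraries (log axis) against the log2 fold change, EV-deficient minus EV-proficient, for the 18108 tested genes; orange points were called higher, blue points lower, grey points were not called, and dotted lines mark 2-fold. Ccl2, Hoxb9, Cdh2 and Klf6 lie far above the bulk of genes of their level, and Qrfp, Plac8, Bmp7 and Tnc far below it.

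Interferon-inducible GTPases, proteins of the GBP and IRG families that attack the membranes of intracellular pathogens, were all higher in the EV-deficient libraries. All 17 tested members (of 19 in the table) were called at 2-fold or more, with a median log2 fold change of 1.61 against -0.0047 over all genes, and 15 to 17 were called when 1 library was left out. Irgm1, a regulator of the IRG family, stood at 47.1, 45.5 and 45.8 CPM in EV-proficient libraries 1 to 3 and at 130, 118 and 82.2 CPM in EV-deficient libraries 1 to 3. The groups did not overlap, and the third EV-deficient library was the lowest of its group. The difference was 2.38-fold (log2 1.25 ± 0.11 SE, edgeR adjusted p 1.98e-08). Gbp2, a guanylate-binding protein, was at 12.1, 12 and 11.4 CPM and at 40.8, 33.4 and 22 CPM, again with no overlap (log2 1.43 ± 0.17 SE, edgeR adjusted p 1.36e-06). Iigp1, which loads onto parasite vacuoles, had the largest difference among members with a mean of at least 5 CPM, with 1.11, 1.30 and 1.17 CPM against 14.6, 11.7 and 5.20 CPM. Its log2 fold change was 3.13 ± 0.31 SE (edgeR adjusted p 2.40e-07).

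Among the interferon-induced antiviral effectors, 44 of 55 tested members were higher and 1 lower, 30 of them by at least 2-fold, with a median of 1.22. Between 40 and 47 were higher when 1 library was left out. Ifit3, a partner of IFIT1 in antiviral complexes, was at 16.2, 18.8 and 14.2 CPM in the EV-proficient libraries and at 98.0, 112 and 34.5 CPM in the EV-deficient ones. The lowest EV-deficient library still lay above all EV-proficient ones (log2 2.30 ± 0.26 SE, edgeR adjusted p 5.67e-07). Oas3, a synthetase of the 2-5A messenger that activates RNase L, was at 11.4, 11.6 and 11.7 CPM and at 51.1, 62.9 and 31.0 CPM, without overlap. That is 4.17-fold higher (log2 2.06 ± 0.17 SE, edgeR adjusted p 5.84e-09). Oas2 (log2 2.96 ± 0.40 SE), Trim30a (2.62 ± 0.25) and Slfn2 (2.43 ± 0.20) were the members with the largest called differences. Rsad2, the antiviral enzyme viperin, overlapped between the groups, with 63.6, 59.6 and 52.5 CPM against 134, 171 and 53.3 CPM, although the test called it higher (log2 1.02 ± 0.23 SE, edgeR adjusted p 0.00144). The single member called lower was Oasl1, at 38.5, 38.1 and 30 CPM against 24.0, 36.1 and 15.2 CPM, groups that overlap (log2 -0.51 ± 0.19 SE, edgeR adjusted p 0.0374), and 8 of the 14 alternatives did not call it. GBP, IRG, IFIT and OAS genes resemble one another in sequence, and how reads shared by several copies were counted is not given in the sources used here, so single members of these families are uncertain.

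**Figure D2:**
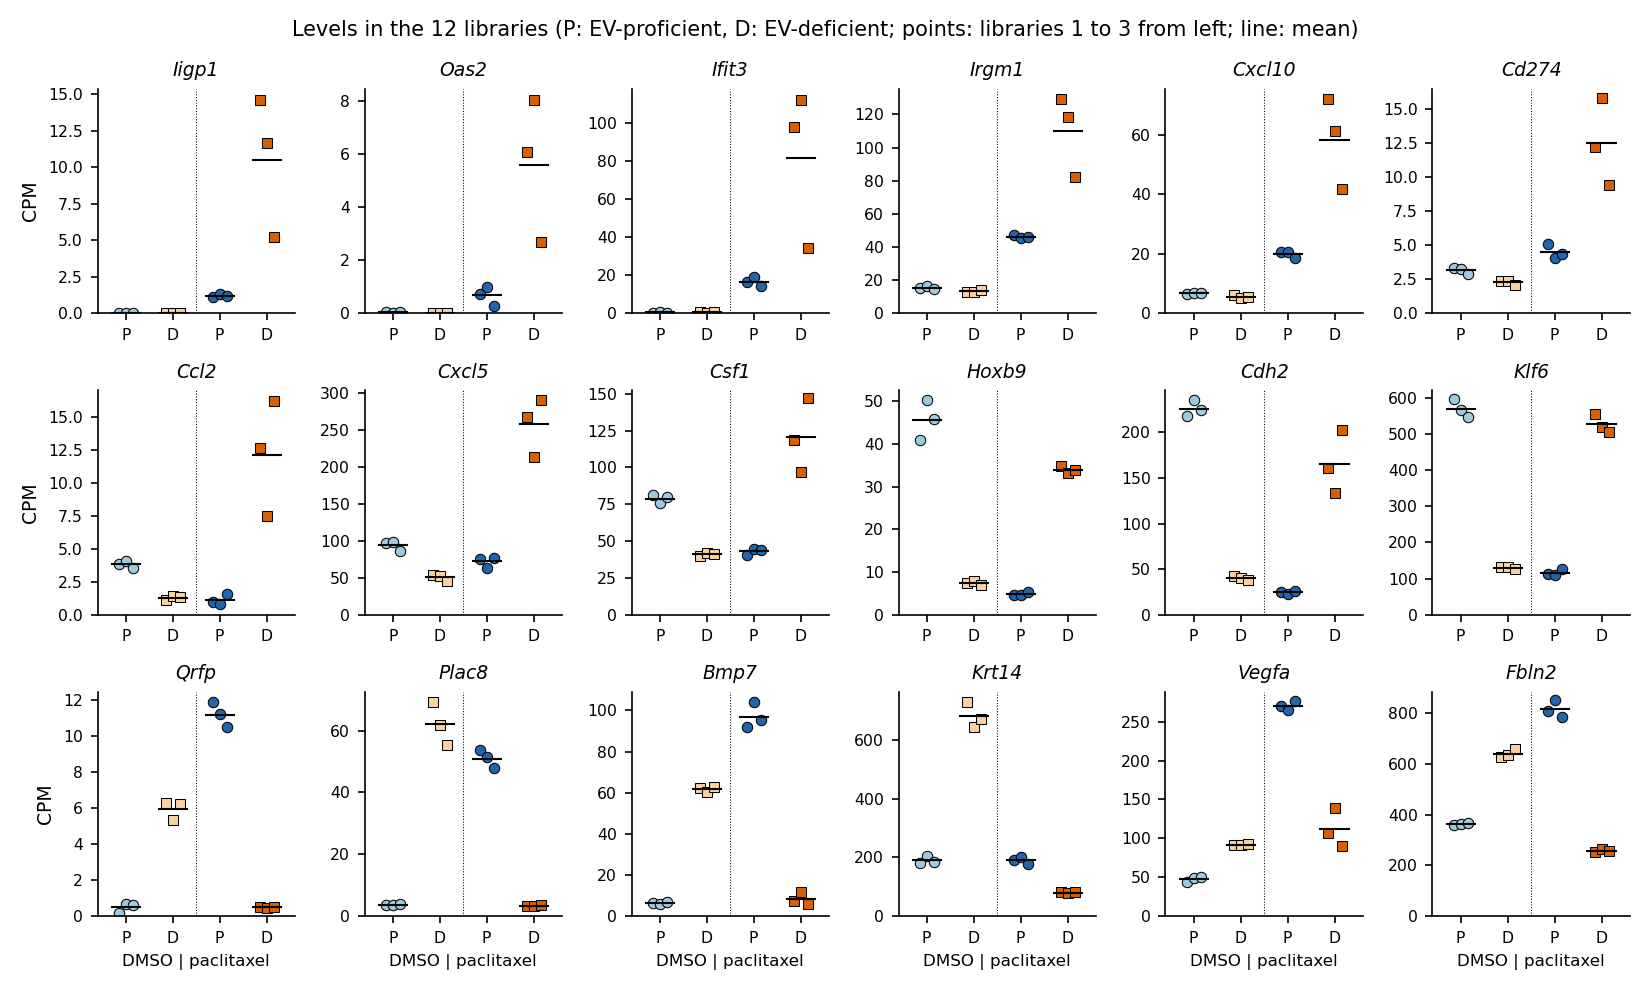
CPM of 18 genes in the 12 libraries (P, EV-proficient; D, EV-deficient; DMSO left and paclitaxel right of the dotted line; points are libraries 1 to 3 and lines the group means). Iigp1, Oas2, Ifit3, Irgm1 and Cxcl10 are highest in the EV-deficient paclitaxel libraries, with the third of these the lowest of its group, whereas Hoxb9, Cdh2, Klf6, Plac8 and Bmp7 change sides between the treatments.

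The sequence letters of the ISRE were common upstream of these genes. The motif (GAAA, any 2 bases, GAAA, or TTTC, any 2 bases, TTTC on the other strand) was looked for in the 250 bases before the RefSeq start (GRCm38.p6), which could be matched for 11736 of the tested genes. It occurred in 311 of them (2.65%), in 57 of 618 genes called 2-fold higher (9.22%) and in 9 of 271 called 2-fold lower (3.32%). Of the 10 interferon-inducible GTPases with a matched promoter 9 held it, and of the 43 antiviral effectors 19 did (44.2%). These matches are a description of letters, not of binding. The following 60-base stretches are from the members described here, 5′ to 3′ on the strand of the gene, with matches in capitals. They show the orientation of the match furthest upstream and its distance from the start.
Irgm1, chr11:48871421-48871480, minus strand: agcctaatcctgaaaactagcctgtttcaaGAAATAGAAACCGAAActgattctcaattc
Gbp2, chr3:142620579-142620638, plus strand: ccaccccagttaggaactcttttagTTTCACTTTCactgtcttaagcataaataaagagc
Ifit3, chr19:34583348-34583407, plus strand: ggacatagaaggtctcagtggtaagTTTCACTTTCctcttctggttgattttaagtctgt
Oas3, chr5:120777700-120777759, minus strand: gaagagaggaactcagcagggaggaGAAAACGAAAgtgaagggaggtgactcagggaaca
Trim30a, chr7:104465195-104465254, minus strand: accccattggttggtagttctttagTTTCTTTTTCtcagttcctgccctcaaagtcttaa
Stat2, chr10:128270251-128270310, plus strand: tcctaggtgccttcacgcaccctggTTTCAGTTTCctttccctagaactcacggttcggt

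The first match began 30 bases before the start in Irgm1, where 2 matches overlap in the run of capitals, 59 in Gbp2, 156 in Ifit3, 75 in Oas3, 36 in Trim30a and 222 in Stat2. Ifit3 held another match nearer the start, which its stretch does not show. These 6 genes are examples, and other described genes, such as Cxcl10, Lgals9 and Rsad2, hold a match too.

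Upstream in the pathway the differences were smaller and of both signs. Of 17 innate nucleic acid sensors and their adaptors, 12 were higher and 3 lower, with a median of 0.61, and of 20 interferon receptor and JAK-STAT genes 11 were higher and 2 lower, with a median of 0.42. The lower JAK-STAT genes were Socs3 and Tyk2. Tyk2 was not called in 9 of 14 alternatives, among them DESeq2, RLE and upper-quartile scaling. Ddx58, which encodes the RNA sensor RIG-I, stood at 53.5, 50.6 and 52.0 CPM against 114, 120 and 104 CPM. The groups lay far apart relative to their spread (log2 1.11 ± 0.07 SE, edgeR adjusted p 9.17e-11). Stat2 was at 35.5, 33.3 and 28.1 CPM against 74.0, 90.4 and 58.7 CPM (log2 1.20 ± 0.12 SE, edgeR adjusted p 1.18e-07), and Irf7 (1.11 ± 0.17) and the deconjugase gene Usp18 (1.29 ± 0.20) were also higher without overlap. Mb21d1, the gene of the DNA sensor cGAS, was lower: 14.4, 13.8 and 15.9 CPM against 7.68, 5.80 and 7.0 CPM. The EV-deficient level was 0.468 of the EV-proficient one (log2 -1.10 ± 0.11 SE, edgeR adjusted p 9.48e-08), and the groups did not overlap. The adaptor gene Mavs (-0.42 ± 0.07) and the transcription factor gene Irf3 (-0.37 ± 0.09) were lower as well.

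The third EV-deficient library held less of these transcripts than the others. It was the lowest of its group for 51 of the 55 antiviral effectors, 16 of the 17 GTPases, 15 of the 17 sensors and 17 of the 20 JAK-STAT genes, against 34.7% of all tested genes. The summed level of the GTPases was 112, 108 and 103 CPM in the EV-proficient and 380, 349 and 222 CPM in the EV-deficient libraries, and that of the antiviral effectors 903, 897 and 835 against 1926, 1982 and 1229 CPM. Both sums were higher in every EV-deficient library than in every EV-proficient one. In bulk RNA, fewer cells with a response and a weaker response per cell cannot be told apart.

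**Figure D3:**
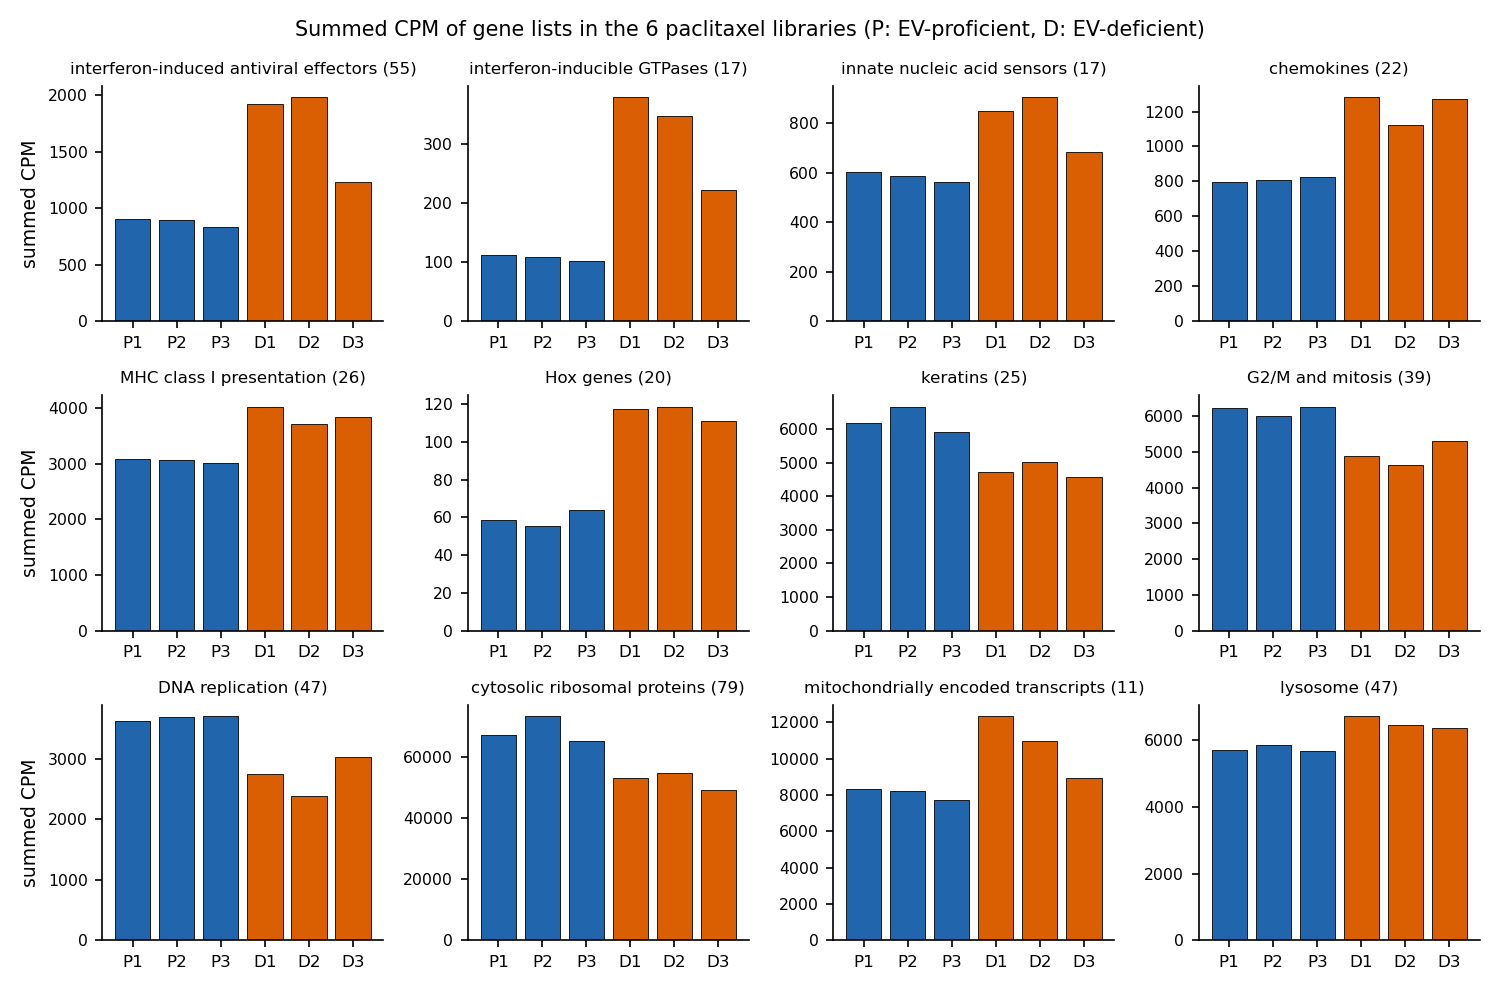
Summed CPM of the tested members of 12 gene lists in each paclitaxel library (P1 to P3, EV-proficient; D1 to D3, EV-deficient; member number in brackets; bars start at 0). Interferon lists are higher in all EV-deficient libraries with D3 lowest, while the mitosis, replication and ribosomal protein lists are lower in all EV-deficient libraries.

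Antigen presentation and surface ligands of immune cells changed less than the effectors. Of 26 tested members of class I presentation, 15 were higher and 3 lower, with a median of 0.32, and a single member reached 2-fold upwards. B2m, the light chain of class I molecules, was at 266, 233 and 292 CPM against 424, 397 and 344 CPM (log2 0.56 ± 0.08 SE, edgeR adjusted p 1.21e-05), without overlap. The heavy chain genes H2-K1 (log2 0.35 ± 0.06 SE) and H2-D1 (0.25 ± 0.06) were higher, the immunoproteasome gene Psmb8 was higher by 1.14 ± 0.25, and H2-Q7 (-1.55 ± 0.35), H2-Q2 (-1.03 ± 0.39) and H2-T10 (-0.87 ± 0.26), of the other class I genes, were lower. The H2-Q2 call was lost in 8 alternatives and that of H2-T10 in 2, without EV-proficient library 1 and without EV-deficient library 3. H2-Q2 was not called in these 2 fits either. With 1 library left out, 1 to 3 members of the list were lower. H2 genes also resemble one another in sequence. The peptide transporter gene Tap1 overlapped between the groups, at 8.10, 7.47 and 6.39 CPM against 15.4, 17.0 and 6.64 CPM. Its call (log2 0.82 ± 0.24 SE, edgeR adjusted p 0.010) was lost with DESeq2, with limma-voom and without EV-deficient library 1 or 2.

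Cd274, which encodes the checkpoint ligand PD-L1, stood at 5.06, 4.01 and 4.33 CPM against 12.2, 15.8 and 9.37 CPM. All EV-deficient libraries were above all EV-proficient ones, 2.78-fold on average (log2 1.47 ± 0.17 SE, edgeR adjusted p 8.93e-07). Cd47, the signal against phagocytosis, was at 65.7, 57.8 and 67.6 CPM against 149, 137 and 127 CPM (log2 1.11 ± 0.07 SE, edgeR adjusted p 1.39e-10). Lgals9, which encodes galectin-9, was higher by 1.46 ± 0.13, while Pvr, a ligand of TIGIT and DNAM-1, was lower by a log2 fold change of -0.41 ± 0.06. Vcam1, an adhesion molecule for leukocytes, was at 10.2, 8.79 and 7.49 CPM against 51.7, 39.4 and 57.7 CPM. This 5.57-fold difference (log2 2.48 ± 0.14 SE, edgeR adjusted p 1.56e-11) was not lowest in the third EV-deficient library. Vcam1 was the highest member of a list of 30 NF-kB subunits and feedback genes, of which 6 were higher and 6 lower (median 0.025). With upper-quartile scaling 8 of that list were higher and 2 lower. Of the 17 tested checkpoint and NK-ligand genes, 5 were higher, 2 lower and 10 not called, where 16.0% of all genes were higher and 21.8% lower.

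Of 22 tested chemokine and chemokine-receptor genes, 11 were higher in the cells labelled EV-deficient and 3 lower, with a median of 0.69. The lower ones were Ackr3, Cx3cl1, an attractant of monocytes and T cells (-0.32 ± 0.06), and Ccl28, an epithelial chemokine (-1.90 ± 0.49). Ccl2, the monocyte attractant, was at 0.949, 0.773 and 1.58 CPM against 12.7, 7.46 and 16.3 CPM. Among genes with a mean of at least 5 CPM and groups that do not overlap it had the largest difference upwards, 11.7-fold (log2 3.55 ± 0.26 SE, edgeR adjusted p 1.58e-09). Cxcl5, a ligand of the neutrophil receptor CXCR2, was at 75.5, 63.2 and 76.9 CPM against 267, 213 and 291 CPM (log2 1.84 ± 0.10 SE, edgeR adjusted p 1.22e-11). Its close neighbours Cxcl1 (0.83 ± 0.07), Cxcl2 (1.74 ± 0.12) and Cxcl3 (2.54 ± 0.22), which bind the same receptor, were higher too, and no group overlapped. Cxcl10, an interferon-induced attractant of T cells, was at 20.5, 20.5 and 18.4 CPM against 72.0, 61.3 and 41.6 CPM (log2 1.55 ± 0.13 SE, edgeR adjusted p 1.53e-08). Ccl5, another T-cell attractant, was at 8.02, 7.03 and 4.69 CPM against 6.15, 6.58 and 5.38 CPM and was not called (log2 -0.14 ± 0.22 SE, edgeR adjusted p 0.658). Ackr3, a scavenging receptor for CXCL12, was at 52.5, 47.8 and 53.8 CPM against 11.3, 9.54 and 12.5 CPM, without overlap (log2 -2.21 ± 0.09 SE, edgeR adjusted p 1.36e-13).

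Cytokines had no common direction: of 24 tested members 6 were higher and 8 lower, with a median of -0.094, or 0.00096 with upper-quartile scaling. Csf1, the macrophage growth factor, was at 40.6, 44.4 and 43.9 CPM against 119, 96.9 and 147 CPM, with every EV-deficient library more than 2-fold above every EV-proficient one (log2 1.49 ± 0.10 SE, edgeR adjusted p 3.35e-10). Il33 (2.19 ± 0.34) and Tslp (0.76 ± 0.10), alarmins of epithelia, were higher, whereas Il11 (-0.80 ± 0.18), Lif (-0.36 ± 0.06) and Ctf1 (-2.0 ± 0.30), ligands of gp130 receptors, were lower. Il1a (-0.11 ± 0.12) and Csf2 (-0.08 ± 0.10) were not called. Il6 did not pass the filter on low counts.

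The kappaB letters searched, on both strands, were GGGAA, any base, TTCC; GGGAC followed by TTTCC; and GGGAA followed by TTTCC, of which the last is contained in the first. They occurred in 0.46% of the 11736 matched promoters and in 4 of the 16 chemokine promoters (25%). Of the 618 genes called 2-fold higher 8 held them (1.29%), and of the 271 called 2-fold lower 2 did (0.738%). The stretches of 4 described genes that hold a match follow, again 5′ to 3′ on the strand of the gene (RefSeq, GRCm38.p6) with the match in capitals, to show the form of the match in Cxcl1, Cxcl2 and Cxcl3 beside that in Csf1.
Cxcl1, chr5:90891149-90891208, plus strand: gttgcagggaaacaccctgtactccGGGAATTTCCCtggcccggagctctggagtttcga
Cxcl2, chr5:90903777-90903836, plus strand: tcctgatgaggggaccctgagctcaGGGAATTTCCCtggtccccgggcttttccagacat
Cxcl3, chr5:90786003-90786062, plus strand: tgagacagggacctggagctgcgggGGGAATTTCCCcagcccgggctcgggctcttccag
Csf1, chr3:107760589-107760648, minus strand: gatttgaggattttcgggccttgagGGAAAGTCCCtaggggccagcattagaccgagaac

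Acute-phase and complement genes were mostly higher, 8 of 14 tested members with 1 lower (median 0.74). The lower one, Pglyrp1, was not called in 4 of the fits that left out 1 library. Cp, the copper carrier ceruloplasmin, was at 58.2, 51.4 and 59.6 CPM against 168, 143 and 167 CPM (log2 1.5 ± 0.08 SE, edgeR adjusted p 1.01e-11). C3, the central complement component, was higher by 1.57 ± 0.12, Steap4 by 2.72 ± 0.24, and the siderophore carrier gene Lcn2 by 0.81 ± 0.11. In the plasminogen system and serpins, 12 of 18 were higher and 3 lower (median 0.87). Serpinb2, which encodes a plasminogen activator inhibitor, was among the lower ones, at 214, 208 and 248 CPM against 64.1, 58.9 and 61.4 CPM (log2 -1.86 ± 0.09 SE, edgeR adjusted p 2.04e-12), and its groups did not overlap. Vegfa, the angiogenic growth factor, was at 270, 264 and 277 CPM against 107, 139 and 90.6 CPM, a fold of 0.415 (log2 -1.27 ± 0.10 SE, edgeR adjusted p 3.07e-09).

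Hox genes, which set positional identity along the body axis, were higher in the EV-deficient libraries at the Hoxb cluster. All 9 tested Hoxb genes from Hoxb2 to Hoxb13, adjacent among tested protein-coding genes on chromosome 11, were called higher. Besides Hoxb2 their log2 fold changes ran from 2.14 (Hoxb3) to 3.72 (Hoxb5). Hoxb2 had at most 2 counts in an EV-proficient library and was at least 4.5-fold higher against a floor of 3 counts per library. Hoxb9 was at 4.70, 4.48 and 5.34 CPM against 34.8, 33.1 and 34.0 CPM. Replicates differed little beside this 7.09-fold gap (log2 2.83 ± 0.10 SE, edgeR adjusted p 2.26e-14). Hoxd8 (2.41 ± 0.23) and Hoxa9 (1.17 ± 0.33) were higher too, whereas Hoxa4 (-1.19 ± 0.29), Hoxa5 (-0.72 ± 0.16) and Hoxa7 (-0.82 ± 0.12) were lower. Of 20 tested Hox genes 11 were higher and 3 lower, with a median of 2.17, or 2.16 with Hoxb2 at its bound.

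Other regulators and adhesion genes differed as much. Cdh2, the N-cadherin of mesenchymal and neural cells, was at 24.9, 22.6 and 25.7 CPM against 161, 133 and 203 CPM, 6.82-fold higher (log2 2.77 ± 0.11 SE, edgeR adjusted p 9.19e-14). Klf6, a zinc-finger transcription factor, was at 111, 109 and 125 CPM against 557, 521 and 507 CPM and was the highest of the named genes above 100 CPM (log2 2.20 ± 0.06 SE, edgeR adjusted p 1.14e-15). The transcription regulator genes Lmo1 (3.01 ± 0.15) and Ebf3 (3.02 ± 0.27) and the neuronal microtubule regulator gene Stmn2 (2.84 ± 0.17) were higher without overlap. Of the 29 tested genes of epithelial-mesenchymal transition, 6 were higher, among them Zeb1 (1.80 ± 0.17) and Vim (0.98 ± 0.06), and 9 lower, among them Sparc (-1.23 ± 0.08). These counts are to be read against 16.0% higher and 21.8% lower over all genes. The epithelial cadherin gene Cdh1 was also higher (0.37 ± 0.05), and Epcam lower (-0.61 ± 0.09).

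Among genes with a mean of at least 5 CPM, Qrfp, Plac8, Nectin4, Edn2 and Bmp7 had the largest differences downwards. Qrfp, a neuropeptide precursor, was at 11.9, 11.2 and 10.5 CPM against 0.503, 0.476 and 0.509 CPM (log2 -4.49 ± 0.24 SE, edgeR adjusted p 1.18e-11). Plac8, a small cysteine-rich protein, was at 53.8, 51.3 and 47.8 CPM against 3.32, 3.40 and 3.56 CPM (log2 -3.90 ± 0.10 SE, edgeR adjusted p 1.54e-16). Bmp7, a ligand of the BMP branch of TGF-beta signalling, was at 91.8, 104 and 95.3 CPM against 7.49, 11.8 and 5.73 CPM (log2 -3.56 ± 0.15 SE, edgeR adjusted p 3.01e-13). Within each of the 3 genes the groups were more than 7-fold apart in every library.

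Nectin4 (-3.69 ± 0.23), a junction protein, Edn2 (-3.65 ± 0.21), an endothelin, and Tnc (-2.74 ± 0.12), the matrix protein tenascin-C, were lower by the same order. Peg10, a paternally expressed imprinted gene, was at 17.7, 16.1 and 18.6 CPM against 2.22, 1.02 and 2.25 CPM (log2 -3.23 ± 0.19 SE, edgeR adjusted p 4.22e-11). Its neighbour Sgce on chromosome 6, imprinted in the same domain, was lower too (-1.87 ± 0.25), whereas the 25 tested imprinted genes as a list had 9 higher and 4 lower members. The count of higher imprinted genes was 4 without EV-proficient library 2. Fbln2, the matrix protein fibulin-2, was at 810, 854 and 786 CPM against 255, 265 and 255 CPM (log2 -1.66 ± 0.06 SE, edgeR adjusted p 6.17e-15). Of 36 tested collagens 8 were higher, among them Col5a1 (2.12 ± 0.24), and 5 lower (5 higher without EV-proficient library 1), and of 16 metalloproteinases and their inhibitors 5 were higher and 1 lower, against 16.0% higher and 21.8% lower over all genes. The lower metalloproteinase gene, Mmp11, was not called in 4 of 14 alternatives, among them upper-quartile scaling.

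Of 25 tested keratins, the intermediate filaments of epithelia, 11 were lower, 1 was higher and 13 were not called, with a median of -0.43. Krt14, of the basal layer, was at 192, 202 and 178 CPM against 80.3, 77.4 and 82.5 CPM (log2 -1.25 ± 0.07 SE, edgeR adjusted p 1.18e-11). Krt6a (-2.61 ± 0.12), a keratin of stressed epithelium with a close relative in the genome, Krt17 (-0.79 ± 0.08), Krt18 (-0.53 ± 0.07) and Krt7 (-0.46 ± 0.07) were lower, Krt20 was higher (0.98 ± 0.15), and Krt8 was not called (0.12 ± 0.07). The kallikrein genes Klk8 (-1.38 ± 0.10), Klk7 (-1.28 ± 0.47) and Klk6 (-1.25 ± 0.31), proteases of the skin barrier, were lower as well. These 3 genes are adjacent among tested protein-coding genes. However, 7 of 13 alternatives did not call Klk7 (largest edgeR adjusted p 0.107). The 39 tested genes of the cornified envelope, the outer shell of squamous cells, had 9 higher members, among them Sprr2e (1.61 ± 0.40), and 6 lower, with a median of -0.021, where 16.0% of all genes were higher and 21.8% lower.

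Genes of the cell cycle were lower in the EV-deficient libraries, by small amounts. Of 47 DNA replication genes 35 were lower and 0 higher in edgeR, and of 39 genes of G2/M and mitosis 29 were lower and 0 higher, with medians of -0.38 and -0.32. At an unadjusted p under 0.05, with DESeq2 and with limma-voom 0 members of either list were higher as well, whereas 1 mitosis gene was called higher with upper-quartile scaling and 1 without EV-deficient library 2. With 1 library left out, 26 to 40 replication genes were lower. Aurkb, a kinase of chromosome segregation, was at 144, 155 and 174 CPM against 83.5, 80.4 and 93.3 CPM (log2 -0.88 ± 0.07 SE, edgeR adjusted p 4.02e-09). Cdt1, which loads the MCM helicase, was at 106, 115 and 118 CPM against 52.3, 53.8 and 59.1 CPM (log2 -1.04 ± 0.08 SE, edgeR adjusted p 3.08e-09) and was the single replication gene at 2-fold. Top2a (-0.45 ± 0.06), Mcm5 (-0.76 ± 0.09) and Tk1 (-0.98 ± 0.07) were lower, and Mki67 was not called (-0.16 ± 0.09). In contrast to the interferon lists, the second EV-deficient library was the lowest of its group, for 41 of the 47 replication and 33 of the 39 mitosis genes, against 36.1% of all tested genes. The E2F letters TTTCGCGC, TTTGGCGC, TTTCCCGC and TTTGCCGC, on both strands, occurred in 8 of 38 matched replication promoters (21.1%) against 3.14% of all matched.

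In the list of CDK inhibitors, which carry out senescent arrest, and their cyclin and E2F partners, 14 of 23 members were lower and 1, the retinoblastoma gene Rb1, was higher. Rb1 (0.41) was not called without EV-proficient library 2 or without EV-deficient library 1. Among the inhibitors Cdkn1a, Cdkn2a, Cdkn2b and Cdkn2c were called lower, and Cdkn1b (0.05), Cdkn1c (0.31) and Cdkn2d (-0.09) were not called. Cdkn1a, the p21 gene, was at 53.6, 55.1 and 48.1 CPM against 31.4, 35.0 and 25.5 CPM (log2 -0.78 ± 0.10 SE, edgeR adjusted p 1.84e-06). Cdkn2b, the p15 gene, was at 47.1, 48.5 and 48.0 CPM against 35.2, 37.0 and 30.5 CPM (log2 -0.49 ± 0.10 SE, edgeR adjusted p 6.18e-04). Cdkn2a was lower by a small margin (-0.32 ± 0.11, edgeR adjusted p 0.0232), a call lost with upper-quartile scaling (-0.23) and in 4 other alternatives. Lmnb1, the lamin whose loss marks senescence, was lower (-0.37 ± 0.06), and Glb1, the gene of the senescence-associated galactosidase, was not called (0.10 ± 0.08). The groups of Cdkn1a, Cdkn2a and Cdkn2b did not overlap.

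Targets of growth factor signalling were also lower. Of 33 genes of ERK feedback and AP-1, which report growth factor signalling, 20 were lower and 1 higher (median -0.40). Etv5, an ETS factor induced by ERK, was at 99.4, 96.9 and 108 CPM against 48.6, 57.1 and 43.6 CPM (log2 -1.03 ± 0.08 SE, edgeR adjusted p 3.42e-09), and the feedback inhibitor genes Spry1 (-1.08 ± 0.08) and Dusp2 (-1.12 ± 0.14) and the AP-1 gene Fosl1 (-0.98 ± 0.14) were lower without overlap. Of 40 genes of the unfolded protein and integrated stress responses, 19 were lower and 7 higher (median -0.16), the higher count being 3 without EV-proficient library 2 and 10 with upper-quartile scaling. The lower members included ATF4 targets of amino acid metabolism. Aldh1l2, of mitochondrial folate metabolism, was at 49.8, 56.5 and 52.5 CPM against 10.2, 11.6 and 12.1 CPM (log2 -2.22 ± 0.09 SE, edgeR adjusted p 9.19e-14). Stc2 (-2.11 ± 0.09), Trib3 (-1.08 ± 0.10), Shmt2 (-0.98 ± 0.07) and Asns (-0.91 ± 0.08) were lower. The ER chaperone gene Hspa5 was higher (0.34 ± 0.06), and Ddit3 (0.17 ± 0.09) and Atf3 (-0.01 ± 0.07), 2 further genes of the response, were not called.

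Ribosomal protein genes were lower almost throughout, 71 of 79 tested cytosolic members with 1 higher and a median of -0.38. Rplp0 was at 3270, 3726 and 3431 CPM against 2545, 2495 and 2492 CPM (log2 -0.47 ± 0.06 SE, edgeR adjusted p 3.01e-06), and Rpl21 was the member called higher (0.20 ± 0.06), with groups that overlap and a call lost in 4 fits that leave out 1 library. These genes have many processed copies in the genome. Of the mitochondrial ribosomal proteins 34 of 77 were lower and 1 higher (median -0.21), a count of 21 without EV-proficient library 2, and with upper-quartile scaling 20 lower and 4 higher. Of the nuclear-encoded respiratory chain genes 37 of 81 were lower and 2 higher (median -0.19), with upper-quartile scaling 22 and 7. The mitochondrially encoded transcripts went the other way: 5 of 11 were higher and 0 lower in edgeR (median 0.31), with 6 higher and 0 lower at an unadjusted p under 0.05 and with DESeq2. Here mt-Nd1, a subunit of complex I, was called with a log2 fold change of 0.54 ± 0.09 SE. Without EV-deficient library 1, in which the mitochondrial share of counts was highest, 3 of them were called.

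Of 47 lysosomal genes 23 were higher, 7 lower and 17 not called (median 0.24). Ctsc, a protease that activates granule serine proteases, was at 28.5, 26.8 and 26.9 CPM against 80.8, 79.4 and 69.2 CPM and was the member at 2-fold (log2 1.48 ± 0.07 SE, edgeR adjusted p 3.13e-12). Lamp1, the main membrane protein of lysosomes, was higher by 0.52 ± 0.06. Tmem176b (1.29 ± 0.07), Tmem176a (1.32 ± 0.07) and Gpnmb (1.06 ± 0.08), of endolysosomal membranes and adjacent among tested protein-coding genes, were each at least 2-fold higher. Naglu, a lysosomal hydrolase, was lower (-0.57 ± 0.09).

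Among the tubulins, which form the target of paclitaxel, 3 of 17 genes were higher and 8 lower (median -0.20). Tuba1a was at 224, 219 and 254 CPM against 576, 503 and 564 CPM (log2 1.24 ± 0.07 SE, edgeR adjusted p 1.61e-11), and Tubb2b (0.83 ± 0.07) and Tubb2a (0.68 ± 0.06) were higher, while the abundant isotype gene Tubb5 (-0.35 ± 0.06) and Tuba8 (-1.31 ± 0.18) were lower. Tubulin genes have near-identical copies, and reads may be split between them. Abcb1b, one of the mouse P-glycoprotein genes that pump taxanes out of cells, was at 66.1, 61.8 and 65.5 CPM against 142, 132 and 133 CPM (log2 1.07 ± 0.06 SE, edgeR adjusted p 2.59e-11). Its relative Abcb1a was at 11.5, 11.9 and 10.3 CPM against 11.9, 12.1 and 14.9 CPM and was not called (0.20 ± 0.12).

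Of 29 tested ESCRT genes, which bud vesicles into multivesicular bodies, 4 were higher and 4 lower, of 42 genes of RAB27 and vesicle secretion 10 were higher and 9 lower, and of 25 tetraspanins, membrane proteins of vesicles, 4 were higher and 3 lower, to be read against 16.0% higher and 21.8% lower over all genes. The 3 medians lay between -0.025 and -0.0038. With upper-quartile scaling the higher and lower counts were 9 and 3 for ESCRT, 14 and 6 for RAB27 and vesicle secretion and 6 and 3 for tetraspanins, and 2 ESCRT genes were higher without EV-deficient library 1. Rab27a, the GTPase that docks multivesicular bodies at the plasma membrane, was at 5.18, 4.94 and 4.77 CPM against 4.60, 4.54 and 4.79 CPM (log2 -0.10 ± 0.14 SE, edgeR adjusted p 0.625). Its relative Rab27b was at 46.6, 45.6 and 53.5 CPM against 59.7, 49.1 and 60.9 CPM, groups that overlap, and was called higher (log2 0.23 ± 0.08 SE, edgeR adjusted p 0.034), a call lost in 6 of 14 alternatives. Pdcd6ip, the gene of the ESCRT adaptor ALIX (-0.08 ± 0.05), and the vesicle surface markers Cd9 (-0.11 ± 0.07) and Cd81 (-0.07 ± 0.07) were not called. Sdc1, a syndecan that recruits cargo through syntenin, was at 377, 389 and 366 CPM against 215, 208 and 198 CPM (log2 -0.87 ± 0.06 SE, edgeR adjusted p 1.65e-10), and Cd82, a tetraspanin, at 95.4, 99.5 and 92.5 CPM against 63.2, 67.4 and 57.2 CPM (log2 -0.62 ± 0.07 SE, edgeR adjusted p 4.23e-07). Sytl2, a RAB27 effector, was called higher (0.99 ± 0.33, edgeR adjusted p 0.0209) with groups that overlap, a call lost in 3 alternatives.

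**Figure D4:**
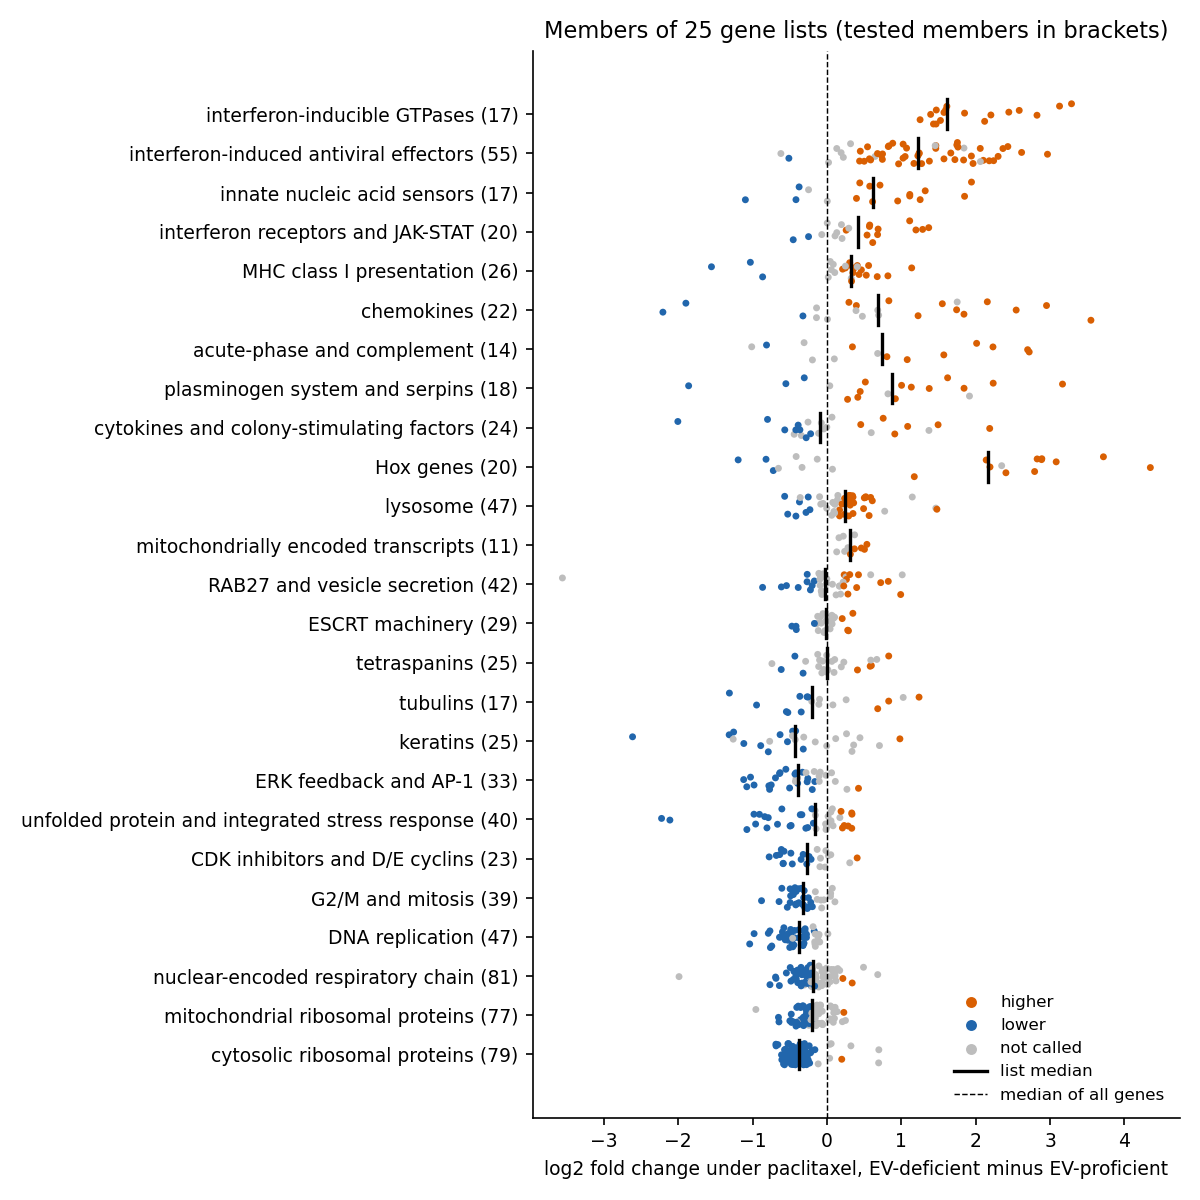
Log2 fold change under paclitaxel, EV-deficient minus EV-proficient, of the tested members of 25 gene lists (1 point per gene; orange higher, blue lower, grey not called; black bars are list medians, the dashed line the median of all genes). The GTPase, antiviral and Hox lists lie to the right, with medians of 1.61, 1.22 and 2.17, and the replication, mitosis and ribosomal protein lists to the left by less than 0.5.

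The same contrast was made in the DMSO libraries, which share no library with the paclitaxel comparison; there 4162 genes were called (23%). The difference between the treatments, tested as an interaction, was called for 7370 genes (40.7%), and in 7025 of these (38.8% of those tested) the 2 contrasts had opposite signs. Of the 407 genes called at 2-fold or more under paclitaxel with a mean of at least 5 CPM, 317 (77.9%) were called in the opposite direction under DMSO, 1 in the same direction and 89 not called. Over all 1572 genes called at 2-fold or more, 648 (41.2%) were called in the opposite direction and 914 (58.1%) not called. Hoxb9, for example, was at 45.7 CPM in the EV-proficient and 7.43 CPM in the EV-deficient DMSO libraries (means of 3; log2 -2.62 ± 0.10 SE), and Bmp7 at 6.41 and 61.8 CPM (log2 3.27 ± 0.16 SE).

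The lists differed in how many of their called members also crossed. Of the called Hox genes 13 of 14 were called in the opposite direction under DMSO, of the keratins 8 of 12 and of the ERK and AP-1 genes 14 of 21. Of the called GTPases this held for 2 of 17 and of the antiviral effectors for 15 of 45, and 15 and 30 of them were not called under DMSO. The replication (8 of 35), mitosis (7 of 29) and cytosolic ribosomal protein lists (21 of 72) had shares below that of the antiviral effectors. A low share was therefore not particular to the interferon lists, and the share over all called genes was not computed. Summed GTPase levels under DMSO were low, at 26.1 CPM in the EV-proficient and 21.1 CPM in the EV-deficient libraries. Ifit3 was at 0.355 and 0.375 CPM in the EV-proficient and EV-deficient DMSO libraries (means of 3; log2 0.06 ± 0.76 SE), and its interaction was called (2.24, edgeR adjusted p 0.0396). Iigp1 was at 0 and 0.0073 CPM there, too few counts to show a difference. In this respect the chemokines lay between, with 8 of 14, and Ccl2 was at 3.83 CPM in the EV-proficient against 1.28 CPM in the EV-deficient DMSO libraries (log2 -1.59 ± 0.26 SE). Whether the shares differ between lists was not tested.

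**Figure D5:**
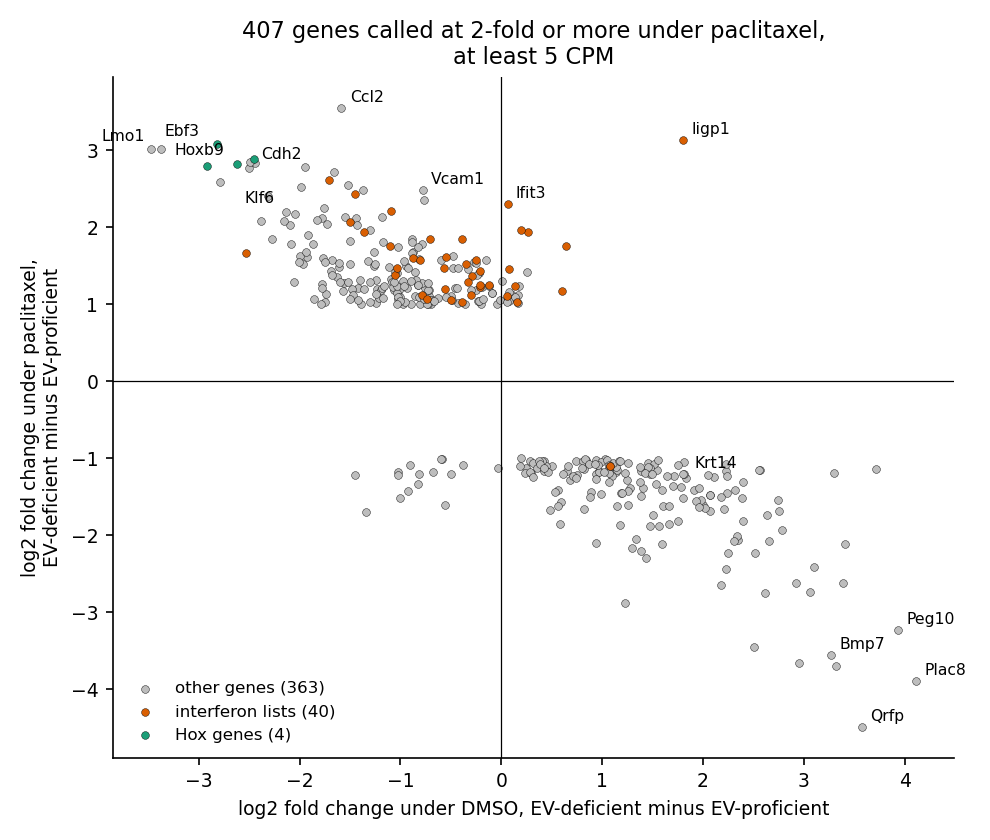
Log2 fold change, EV-deficient minus EV-proficient, under DMSO (horizontal) and under paclitaxel (vertical) for the 407 genes called at 2-fold or more under paclitaxel with a mean of at least 5 CPM; orange, members of the interferon lists; green, Hox genes. Most points lie in the upper left and lower right quadrants, the Hox genes far to the left, and many interferon genes near 0 on the horizontal axis.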

How the data were processed

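Polyadenylated RNA from cultured MOC2 cells was made into stranded libraries and sequenced, as the labels' protocols say. The values deposited by the authors are whole read counts per gene, not normalized, for 55421 Ensembl genes; reads were aligned with STAR 2.5.0a to GRCm38, per the submitters' processing notes. The counting program, its use of strand and its handling of shared reads are not given in the sources used here, so genes that overlap or have antisense partners are uncertain. The table had 0 columns of other samples, and 2 rows added by the authors (gfp and dngfr) were left out of library sizes and tests.

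In R 4.3.3, edgeR 4.0.16 kept 18108 genes (filterByExpr on the 4 groups, minimum count 10), scaled libraries by trimmed mean of M values and fitted all 12 libraries in 1 quasi-likelihood model with 4 group means. The Benjamini-Hochberg adjustment ran over all genes tested, with calls at an adjusted p under 0.05. Standard errors are the absolute log2 fold change over the square root of F. CPM uses the scaled library sizes. A value written as a gene with ± in brackets is its log2 fold change under paclitaxel, EV-deficient minus EV-proficient, with its SE. Lists are described by counts and medians beside those of all genes, with no set test.

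The members, the gene lists and the rules for naming genes were chosen with earlier results of these data known. Named genes were the 15 highest and 15 lowest by log2 fold change with a mean of at least 5 CPM, the 6 of each at 100 CPM or more (called, groups not overlapping, no clone name), up to 4 called members per list and direction, and fixed genes of senescence and vesicles. Irgm1, Gbp2, Ifit3, Oas3, Rsad2, Ddx58, Cxcl1, Cxcl2, H2-K1, H2-D1, Lcn2, C3, Tslp, Csf2, Lif, Il1a, Hoxa9, Hoxb3, Hoxb13, Hoxd8, Krt18, Krt7, Krt8, Top2a, Mcm5, Tubb5, Lamp1, Tmem176a, Gpnmb, Cdkn1b, Cdkn1c, Cdkn2c, Cdkn2d, Asns, Ddit3, Atf3 and Rplp0 were named after their values were seen.

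Replicate pairs gave a chi-square per degree of freedom of 4.34 to 31.4. The pairs of EV-deficient paclitaxel libraries had the highest values (16.3, 22 and 31.4), and the DMSO pairs lay between 4.34 and 12.9. The shared estimate of spread draws on all of them. The tests were checked on counts simulated for the paclitaxel comparison with 200 genes changed: edgeR recovered 64% of those changed 1.5-fold, 66% at 2-fold, 78% at 4-fold and 96% at 8-fold among 17414 genes, with 7 false calls. Floors (3 counts, 0.0553 to 0.129 CPM in the paclitaxel libraries) cover counting error only. The alternatives were DESeq2 1.42.0 and limma-voom (limma 3.58.1) as other tools, RLE or upper-quartile factors as other scalings, dropping the filter or asking for 1 CPM in 3 libraries, a block for the replicate number, fitting the paclitaxel libraries alone, and omitting each library. Positions come from GENCODE M21 and promoters from RefSeq (GRCm38.p6). Results on some items are not reported here.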

Additional observations from a re-analysis of the deposited data

Results flagged for a closer look

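The difference between EV labels under paclitaxel was set against that under DMSO by the interaction test of edgeR. It was called for 7370 genes, and 7025 genes had opposite signs with the interaction called. Of the genes named by size, 41 of 42 had a called interaction, Iigp1 being the exception, and the largest adjusted p among the 41 was 1.45e-05. These genes were chosen for large differences under paclitaxel, which enter the interaction, so this count was largely set by the choice. The interaction (paclitaxel minus DMSO, log2) was positive for Ccl2 (5.13), Hoxb7 (5.90), Ebf3 (6.39), Lmo1 (6.48), Hoxb6 (5.35), Stmn2 (5.33), Epdr1 (5.26), Hoxb9 (5.45), Hoxb8 (5.71), Angptl4 (4.73), Cdh2 (5.27), Steap4 (4.38), Trim30a (4.33), Dmbx1 (5.37), Klf6 (4.33), Cxcl5 (2.73), Cp (2.76), Tmem176b (2.81), Tuba1a (2.40), Cep85 (2.14). It was negative for Qrfp (-8.06), Plac8 (-8.01), Nectin4 (-7.02), Edn2 (-6.61), Bmp7 (-6.83), Rnf165 (-5.96), Peg10 (-7.17), Aqp8 (-4.11), Psapl1 (-5.37), Tnc (-5.80), Xkr5 (-4.82), Itgb2 (-6.0), Krt6a (-5.54), Padi4 (-4.67), Sim2 (-5.51), Serpinb2 (-3.04), Fbln2 (-2.49), Ptprf (-2.86), Prss22 (-1.97), Vegfa (-2.21), Krt14 (-3.09).

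A dngfr sequence that the authors added to their table was outside the gene tests and stood at 10.9 CPM in the EV-deficient paclitaxel libraries (SD 1.4, n = 3), against 3.24 CPM in the EV-proficient ones. Under DMSO the order was the opposite, 2.15 and 8.99 CPM. The labels do not say which line carries the sequence. The added gfp row had 0 counts in all 12 libraries.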

How the results depend on the processing

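No alternative moved the count of genes called under paclitaxel, of those at 2-fold or of the interaction by more than 1.5 times. Counts within lists moved more in some cases, as given beside them. Across the other tools, scalings, filters, the block and the fit to the paclitaxel libraries alone, 5500 (paclitaxel libraries alone) to 7198 genes (limma-voom) were called under paclitaxel, 1117 (1 CPM filter) to 1712 (upper-quartile scaling) of them at 2-fold or more, and 6967 to 7455 in the interaction. Leaving out 1 library gave 5738 (without EV-proficient paclitaxel 2) to 6648 calls, 1431 to 1638 at 2-fold and 6560 to 7367 in the interaction; a group left with 2 libraries shares the spread of the others. With upper-quartile scaling the share of higher calls in the interaction was 53.9% instead of 41.4%, and 5743 of the 6853 calls under paclitaxel were shared.

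Replicate numbers did not pair the libraries: the deviations of same-numbered paclitaxel libraries correlated at -0.0167, 0.0291 and -0.0215. With the replicate number as a block 6858 genes were called under paclitaxel (6659 shared), 1497 at 2-fold, and 7386 in the interaction.

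The depth limits genes below 1 CPM, of which 12.8% were called against 56.2% at 100 CPM or more.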

Other observations

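In the order of the annotation, 29 runs of at least 3 adjacent tested protein-coding genes were all called at 2-fold or more in 1 direction. Genes of other classes lying between them were skipped. Among the runs were the 9 Hoxb genes, Ifit2 to Ifit3b on chromosome 19, Gbp5 to Gbp2 on chromosome 3 and Parp14, Dtx3l and Parp9. Thpo, Chrd and Ephb3 formed a run of lower genes. Neighbours that share reads or a gene family are not independent, and no chance level was computed.

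Transcript classes differed in their medians: 63 of 471 genes that the annotation classes as TEC, transcripts awaiting experimental proof, were at least 2-fold higher and 2 lower, with a median log2 fold change of 0.702, against 840 and 362 of 14407 protein-coding genes with a median of -0.035. Processed pseudogenes had 24 higher and 57 lower of 856. The 5087 tested genes below 1 CPM had a median of 0.398, and the classes were not compared at equal expression level.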
